A study of Mus musculus with 3 samples.

Results

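Cytochrome P450 genes were taken as the probes whose gene symbol in the platform annotation begins with Cyp and a digit. The pattern found 63 probes for 60 genes among 20289 probes on the array, and all 63 had a value in each of 3 arrays. The arrays measured poly(A) RNA of mouse fetal liver at stage E14.5 on single-colour CodeLink oligonucleotide arrays, with 1 array for wild-type embryos, 1 for embryos deficient in DNase II, and 1 for double-deficient embryos, which lack IFN-IR as well as DNase II. DNase II is a lysosomal nuclease with which macrophages degrade the DNA of cells they engulf, and IFN-IR is the receptor for type I interferon. The strain background, the design of the alleles and the number of embryos per array were not stated. Each value below is a normalised intensity, a unit-free brightness that the authors' software scaled so that the typical probe of an array lies near 1. As there were no replicates, no difference below carries a test, and bulk RNA does not separate fewer cells of a type from less RNA per cell.

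P450 enzymes are heme proteins that insert an oxygen atom into their substrates. Those in the endoplasmic reticulum take their electrons from P450 reductase and cytochrome b5, and those in mitochondria take them from ferredoxin. Families 1 to 3 mostly oxidise foreign compounds and steroids, family 4 hydroxylates fatty acids and eicosanoids, and the others serve the synthesis or breakdown of sterols, bile acids, steroid hormones, vitamin D and retinoic acid. In the liver, hepatocytes are the main site of P450 expression, and many of the genes reach their adult level only around or after birth.

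The labelled tissue was checked first. Of 15 hepatocyte markers 11 were measured and 9 exceeded 0.96 in at least 1 array. Their intensities summed to 3324 in wild-type, 3335 without DNase II and 2988 in the double-deficient array. The sum hides opposite differences. Afp read 582.5, 885 and 568 and Trf 203, 303 and 237, but Serpina1a read 294, 130 and 248, Apoa1 577, 439 and 434, and Fabp1 151, 88.1 and 102. Of 9 compared between DNase II-deficient and wild-type, 1 was at least 2-fold lower (11.1%) and 0 higher, against 6.17% and 7.67% of all genes. Tdo2, a late hepatocyte marker, lay below the 25th percentile of all 3 arrays. Dnase2a, which encodes DNase II, read 40.4, 48.6 and 39.7, and Ifnar1 of the interferon receptor read 3.60, 4.66 and 3.17. Neither probe is known to lie in a deleted part, so genotypes rest on the labels. Erythroid markers, 6 of 9 measured, summed to 1764, 1414 and 1624. Of the 6, 4 (66.7%) were at least 2-fold lower without DNase II than in wild-type, against 6.17% of all genes compared. Endothelial markers (5 of 6) summed to 36.5, 24.5 and 32.6, mast cell markers (5 of 6) to 16.4, 17.2 and 17.4, and biliary markers (4 of 5, with Sox9 under the floor defined below) to 3.41, 6.19 and 4.12. The sums hide members that differed in opposite directions. Of the endothelial genes Stab2 read 23.0, 10.2 and 22.1 and Pecam1 0.775, 2.01 and 0.925, the latter compared only because of its DNase II-deficient value. Of the mast cell genes Kit read 9.13, 13.0 and 8.85, but Cpa3 read 2.35, 1.43 and 2.98, Mcpt4 2.56, 1.15 and 2.14, and Mcpt8 2.14, 1.32 and 3.07. Their part in the P450 values was not tested. Here and below, values in series give wild-type first, then DNase II-deficient, and double-deficient last.

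The genes around which the differences turned are shown first by the DNA just before their transcription starts, as 3 of them were brighter and 2 dimmer in the DNase II-deficient array. Cyp2d9 is added as a neighbour of Cyp2d26 with little difference. Each sequence holds the 200 bases before the start in RefSeq's GRCm38.p6 annotation, read 5′ to 3′ on the strand of the gene, and capitals mark the motifs named below on either strand.

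Cyp2d26, chr15:82794246-82794445, minus strand: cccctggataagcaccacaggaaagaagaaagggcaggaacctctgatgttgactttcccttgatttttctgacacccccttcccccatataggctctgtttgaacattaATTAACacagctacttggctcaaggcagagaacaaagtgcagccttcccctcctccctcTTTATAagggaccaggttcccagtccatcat

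Cyp2d9, chr15:82452177-82452376, plus strand: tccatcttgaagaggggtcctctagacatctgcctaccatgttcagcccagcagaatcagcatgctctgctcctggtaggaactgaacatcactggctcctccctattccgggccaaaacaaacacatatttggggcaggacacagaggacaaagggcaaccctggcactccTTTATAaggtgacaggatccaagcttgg

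Cyp2a5, chr7:26835139-26835338, plus strand: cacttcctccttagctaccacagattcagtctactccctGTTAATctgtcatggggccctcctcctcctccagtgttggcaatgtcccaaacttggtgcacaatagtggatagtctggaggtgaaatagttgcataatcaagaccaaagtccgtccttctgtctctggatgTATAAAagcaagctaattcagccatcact

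Cyp1b1, chr17:79715062-79715261, minus strand: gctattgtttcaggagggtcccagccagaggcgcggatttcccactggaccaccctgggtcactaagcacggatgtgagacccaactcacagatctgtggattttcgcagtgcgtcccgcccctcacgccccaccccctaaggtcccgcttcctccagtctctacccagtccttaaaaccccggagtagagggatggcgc

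Cyp27b1, chr10:127048046-127048245, plus strand: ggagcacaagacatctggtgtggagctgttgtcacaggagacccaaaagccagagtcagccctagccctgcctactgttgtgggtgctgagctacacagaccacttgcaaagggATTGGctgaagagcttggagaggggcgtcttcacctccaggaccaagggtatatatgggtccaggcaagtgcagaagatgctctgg

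Cyp2e1, chr7:140763619-140763818, plus strand: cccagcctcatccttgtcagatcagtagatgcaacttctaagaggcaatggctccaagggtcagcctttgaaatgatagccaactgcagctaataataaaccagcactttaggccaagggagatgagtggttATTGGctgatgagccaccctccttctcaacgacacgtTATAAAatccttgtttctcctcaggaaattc

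The search covered 250 bases before the start for 45 of 60 P450 genes, those with an entry in the promoter table, on both strands. The letters TATAAA occurred in 16 of 45 P450 promoters (35.6%), against 13.0% of 27025 promoters in the table. In the genes shown the motif lay 28 to 31 bases before the start of Cyp2d26, Cyp2d9, Cyp2a5 and Cyp2e1, on the plus strand in the last 2 and as its reverse complement in the others. The letters GTTAAT, one arm of the site of the hepatocyte factor HNF1, occurred in 2 P450 promoters, those of Cyp2d26 and Cyp2a5, and in 6.52% of all promoters. CAAAGTCCA, a motif of the hepatocyte factor HNF4, occurred in Cyp3a11, Cyp3a16, Cyp3a41a, Cyp8b1 and Cyp2c70, which is 11.1% of P450 promoters, against 0.381% of all. The Cyp3a genes among them lie in 1 cluster on chromosome 5. Matches in such neighbouring genes, for any motif, need not be independent of each other. CCAAT occurred in 40% of P450 promoters and 34.5% of all, with matches 86 bases before Cyp27b1 and 68 bases before Cyp2e1. GAAANNGAA, a shortened interferon response element, occurred in Cyp4v3 and Cyp1a1 (4.44%, against 7.16% of all). TNGCGTG, a longer form of the core GCGTG bound by the aryl hydrocarbon receptor, occurred in none of 45 (4.16% of all). The shorter GCGTG was not searched, and its reverse complement CACGC is present, unmarked, in the Cyp1b1 sequence shown. No motif searched overlapped another in the bases shown. The Cyp2d26 window lies wholly inside the span that RefSeq's gene table gives to the gene, so a longer transcript may begin upstream of it. These matches describe letters only.

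Most P450 genes were dim in fetal liver. The level that separated brighter from dim probes was 0.96, close to the array medians of 0.958, 0.959 and 0.964. In at least 1 array 23 probes of 22 genes lay above it, 36.7% of the P450 genes, against 61.8% of all 13697 genes with a single symbol. The other 40 probes, of 38 genes, were dim in all 3 arrays. Of the 22 genes, 20 were above 0.96 in all 3 arrays, and Cyp1b1 and Cyp2a5 were above it in the DNase II-deficient array alone. Just inside the limit lay Cyp1a2, at 0.997, 0.985 and 0.983. Just outside lay Cyp2b19, at 0.782, 0.863 and 0.798, and Cyp2c38, at 0.854, 0.856 and 0.840. In all, 12 P450 genes, 20%, had no probe above the 25th percentile in any array, against 14.97% of all genes.

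The brighter genes were unevenly spread over the family. All 6 measured Cyp2d genes, which lie in 1 cluster on chromosome 15, exceeded 0.96, but only 1 of 7 Cyp2c genes on chromosome 19 did so, and none of 4 Cyp2b or 4 Cyp2j genes. Among the 7 measured genes of the Cyp2a, Cyp2b, Cyp2f and Cyp2g cluster on chromosome 7, only Cyp2a5 was above 0.96. In family 4 the brighter genes were 3 of 6 Cyp4f genes, 1 of 4 Cyp4a genes and Cyp4v3. Both bile acid and sterol genes above the level, Cyp27a1 and Cyp51, stood among 5 dim ones, and 1 of 4 vitamin D and retinoid genes was above it. All 4 genes of steroid hormone synthesis were dim. By sequence similarity many P450 genes are close copies of their neighbours, and since probe sequences were not used here, signal from such copies cannot be told apart.

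**Figure D1:**
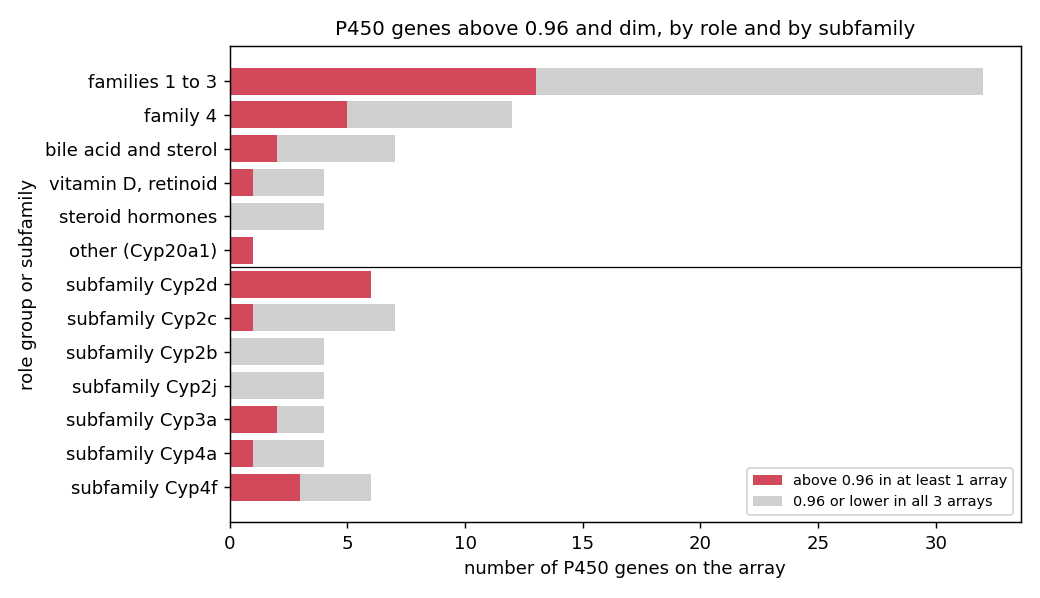
Number of P450 genes on the array (horizontal axis) by role group (above the line) and in 7 subfamilies (below it), split into genes above 0.96 in at least 1 array (red) and genes at or below 0.96 in all 3 (grey). The Cyp2d bar is wholly red, with 6 genes, while the Cyp2b, Cyp2j and steroid hormone bars, with 4 genes each, are wholly grey.

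For the comparisons, each array's 25th percentile (0.162, 0.159 and 0.163) served as a floor, to which dimmer values were raised before log2 differences were taken. A gene was compared where either array of a pair showed it above that array's median. This left 22 P450 genes in the comparison of DNase II-deficient with wild-type, 22 in that of the mutants with each other, and 20 in that of double-deficient with wild-type. Cyp1b1 and Cyp2a5 entered the first 2 comparisons only through the DNase II-deficient array, so a difference in that direction was built into their entry. The 3 comparisons share arrays and are not independent of each other. In place of a replicate error, the spread of a gene is given as the scaled median absolute deviation of the log2 difference over the 500 genes nearest in level. For 461 genes with 2 probes, the log2 differences from wild-type to DNase II-deficient that the probes gave lay 0.31 apart at the median and 0.95 apart at the 90th percentile.

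DNase II-deficient against wild-type asks how P450 expression differs in fetal liver without the nuclease. Cyp2a5, Cyp1b1 and Cyp2d26 were at least 2-fold higher, and Cyp27b1 and Cyp2e1 at least 2-fold lower. That is 3 of 22 genes higher (13.6%) and 2 of 22 lower (9.09%), against 7.67% and 6.17% of all 8383 genes compared. The other 17 differed by less than 2-fold. At 1.5-fold in either direction there were 10 P450 genes (45.5%) against 33.5% of all genes. The median log2 difference was -0.13 for the P450 genes and -0.21 for all genes compared. Its sign depended on the scaling: it was -0.030 with quantile normalisation, 0.0060 with the 75th percentiles made equal and 0.080 after centring on all genes. The all-gene median became -0.07 with either of the first 2 scalings. Of all genes called in this comparison 55.4% were higher as deposited, 65.9% with quantile normalisation, 67.1% with equal 75th percentiles and 73.6% after centring, while the 5 P450 calls and their directions stayed as given under each of these scalings.

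Double-deficient against DNase II-deficient addresses P450 expression with and without IFN-IR where DNase II is missing. Cyp27b1, Cyp2c70, Cyp2e1 and Cyp3a13 were at least 2-fold higher and Cyp2d26, Cyp2a5 and Cyp1b1 at least 2-fold lower in the double-deficient array. These are 18.2% and 13.6% of 22 genes, against 3.11% and 4.85% of 8303 genes. At 1.5-fold there were 8 P450 genes (36.4%) against 22.5% of all. The median was 0.05 for P450 genes and 0.11 for all, and the former became -0.030 with equal 75th percentiles and -0.066 after centring. Of all genes called, 39.03% were higher as deposited and 26.8% after centring.

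Double-deficient against wild-type gave few differences. Only Cyp2d26 reached 2-fold, and it was lower. It was 1 of 20 genes (5%), against 0.735% of 8158 genes lower, while no P450 gene compared was 2-fold higher, against 2.05% of all. Cyp2a5 read 2.25-fold higher in the double-deficient array (0.418 against 0.186) but was not compared, as both values lay below the array medians. At 1.5-fold Cyp2d26 was again the only one of 20 P450 genes, against 9.75% of all genes. The medians were 0.02 for P450 genes and -0.08 for all.

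**Figure D2:**
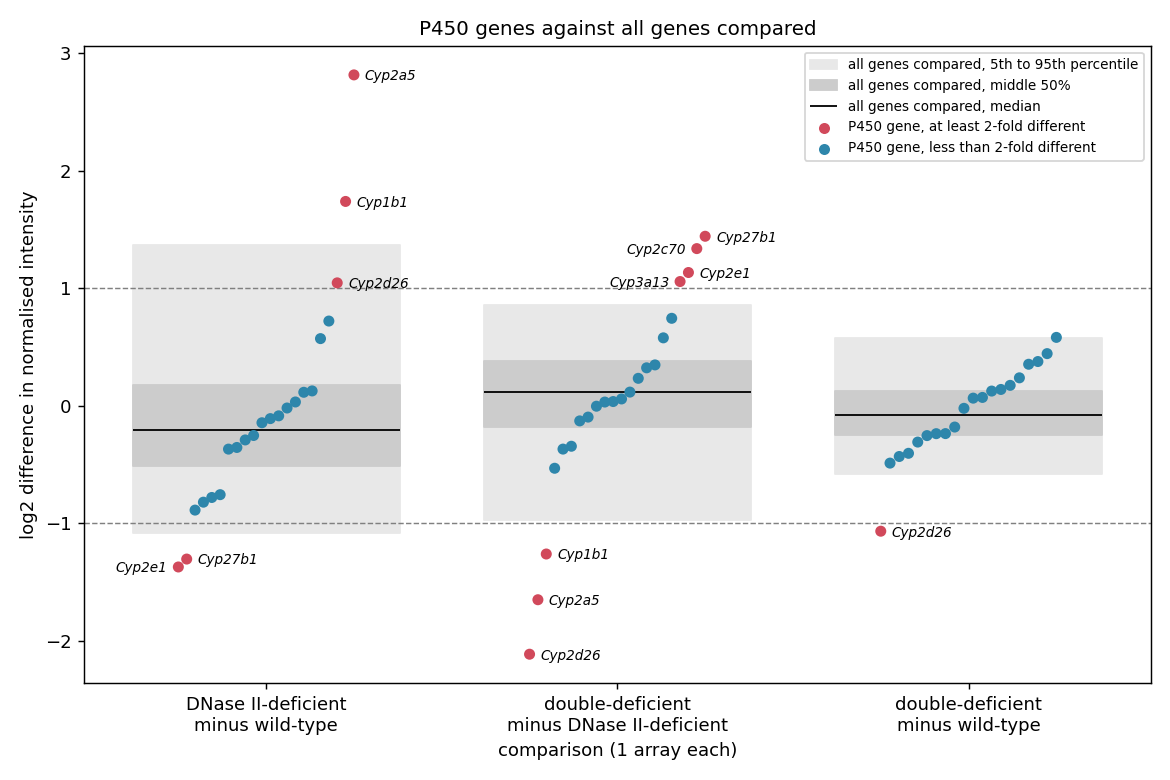
Log2 differences in normalised intensity (vertical axis) of the P450 genes compared, for 3 comparisons of 1 array each (horizontal axis), over grey bands for all genes compared (5th to 95th percentile, middle 50% and the median as a line). Red points are at least 2-fold different, beyond the dashed lines: 5 genes for DNase II-deficient minus wild-type, 7 for double-deficient minus DNase II-deficient and 1, Cyp2d26, for double-deficient minus wild-type.

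Among the drug-metabolising genes, Cyp2d26, of the Cyp2d cluster, was at least 2-fold different in all 3 comparisons. It read 27.3 in wild-type, 56.3 in DNase II-deficient and 13.0 in double-deficient fetal liver. The array lacking DNase II alone was therefore the highest and the double-deficient one the lowest, each about equally far from wild-type. The log2 differences were 1.05 (spread 0.40) for DNase II-deficient minus wild-type, -2.11 (spread 0.35) for double-deficient minus DNase II-deficient and -1.07 (spread 0.25) for double-deficient minus wild-type. The last was -0.97 with quantile normalisation and -0.99 after centring, just short of 2-fold.

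The other 5 Cyp2d genes of the same cluster stayed closer together. Cyp2d10 read 13.5, 12.7 and 11.9, and Cyp2d9 read 8.65, 6.77 and 7.34. Cyp2d13, a transcribed pseudogene in RefSeq, read 139, 114 and 117. None of these 3 differed by as much as 1.3-fold between any 2 arrays. Cyp2d22 read 3.44, 3.12 and 2.46, so it was lowest in the double-deficient array, 1.40-fold below wild-type. Cyp2d34 read 11.1, 5.99 and 8.94, 1.85-fold lower in the DNase II-deficient array than in wild-type. Over 250 bases before the start, the promoters of Cyp2d9 and Cyp2d10 were 84.96% identical where aligned without gaps, and that of Cyp2d26 was 63.3% and 57.8% identical to them.

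Cyp2a5, the coumarin hydroxylase of the mouse, read 0.186 in wild-type, 1.31 in DNase II-deficient and 0.418 in double-deficient fetal liver. The DNase II-deficient value was 7.04-fold above wild-type and 3.14-fold above the double-deficient value. The wild-type value lay just above the floor of 0.162, and the spread at this low level was 1.37, so the log2 difference of 2.82 lay 2.20 spreads from the all-gene median. Genes with so low a mean were compared only where an array exceeded its median, so the filter favoured genes far apart between arrays in this spread. With the floor raised to the array median both differences dropped below 2-fold, to 0.45 and -0.44 on the log2 scale.

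Cyp1b1, which oxidises polycyclic hydrocarbons and oestrogens and is known from mesenchymal cells, showed the same order at 0.334, 1.12 and 0.466. Its DNase II-deficient value was 3.34-fold above wild-type and 2.40-fold above double-deficient. The first of these differences lay 1.42 spreads from the all-gene median, with the same spread and limit as for Cyp2a5. With the floor at the array median neither reached 2-fold, at 0.22 and -0.21 on the log2 scale. Mesenchymal and stellate markers had summed intensities of 135, 197 and 150 over all 9 listed genes, none at the floor in all arrays. Of the 8 compared, 4 (50%) were at least 2-fold higher in the DNase II-deficient array than in wild-type, against 7.67% of all genes. Of the 4, Lrat was compared only because of its DNase II-deficient value. Their part in the Cyp1b1 values was not tested. The related Cyp1a2, an enzyme of adult liver, read 0.997, 0.985 and 0.983, and the dim Cyp1a1, the classic target of the aryl hydrocarbon receptor, read 0.384, 0.471 and 0.447.

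Cyp2e1, the ethanol-oxidising enzyme, read 2.70, 1.04 and 2.29. The DNase II-deficient array was the low one, 2.59-fold below wild-type and 2.20-fold below double-deficient, while the outer arrays were 1.18-fold apart. Cyp3a13 had the same order of the low array, at 1.90, 1.07 and 2.24, with a log2 difference of -0.82 from wild-type (spread 0.46). Against it the double-deficient value was 2.08-fold higher, a log2 difference of 1.06 that was 0.98 with equal 75th percentiles and 0.94 after centring. Cyp2c70, which in mice hydroxylates bile acids to muricholic acids, read 3.57, 2.11 and 5.34. It was 1.69-fold lower in the DNase II-deficient array than in wild-type and 2.53-fold higher in the double-deficient array than in the DNase II-deficient one. Cyp3a16, a Cyp3a gene known from fetal liver, read 1.89, 1.75 and 2.06 and differed little.

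None of the 5 family 4 genes above 0.96 reached 2-fold in any comparison by the probe that stood for it. Cyp4v3, a fatty acid hydroxylase, had 2 probes above 0.96. The brighter one read 3.68, 5.47 and 5.01, and the other 3.03, 6.72 and 4.62. Both were lowest in wild-type and highest in the DNase II-deficient array, but the log2 difference between these arrays was 0.57 by the first probe and 1.15, past 2-fold, by the second. Cyp4f15 read 7.22, 4.21 and 5.36, 1.72-fold lower in the DNase II-deficient array than in wild-type. Cyp4a10, a target of the fatty acid receptor PPARα, read 3.28, 2.54 and 4.26, so the mutants lay on either side of wild-type. Cyp4f13 read 1.99, 2.17 and 1.504, and Cyp4f16 read 1.41, 1.53 and 1.595. Neither of the latter differed by as much as 1.5-fold between any 2 arrays. Cyp4f18, a leukotriene hydroxylase of neutrophils, was dim at 0.110, 0.332 and 0.194, and its DNase II-deficient value was at least 2.05-fold above wild-type, which was at the floor. Neutrophil markers, 8 of 9 measured and none at the floor in all 3 arrays, summed to 269, 765 and 615. Their part in the Cyp4f18 values was not tested.

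Of the sterol enzymes, Cyp51, the lanosterol demethylase of cholesterol synthesis, read 20.6, 21.1 and 21.6 and differed by no more than 1.05-fold between any 2 arrays. Cyp27a1, the mitochondrial enzyme that starts the acidic pathway of bile acid synthesis, read 1.55, 2.56 and 1.98. It was 1.65-fold higher in the DNase II-deficient array than in wild-type, and the log2 difference of 0.72 lay 2.13 spreads from the all-gene median. The dim bile acid genes included Cyp7a1, the rate-limiting enzyme of the classic pathway, at -0.009, 0.036 and 0.105, under the floor in every array. Cyp7b1, at 0.044, 0.102 and 0.137, was likewise under it. Cyp8b1, the 12-alpha hydroxylase, read 0.333, 0.293 and 0.175, and Cyp39a1 read 0.774, 0.443 and 0.564. Cyp46a1, the cholesterol hydroxylase of neurons, read 0.174, 0.158 and 0.161, at or close to the floor.

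Cyp27b1, which makes the active form of vitamin D, read 5.51, 2.23 and 6.07. The DNase II-deficient array was the low one, 2.47-fold below wild-type and 2.72-fold below double-deficient, and the other arrays were 1.10-fold apart. The log2 differences were -1.30 (spread 0.50) from wild-type and 1.44 (spread 0.42) between the mutants. The gene is best known from kidney and activated macrophages. Of 6 markers of kidney, gut and pancreas, 5 were measured, only Cpa1 exceeded 0.96, Ins2 was at the floor in all arrays, and the sums were 2.07, 3.77 and 3.003. The macrophage list, 5 of 9 measured and none at the floor in all arrays, summed to 77.5, 19.8 and 24.2. The sum followed Marco (41.1, 3.98 and 13.5) and Cd5l (30.6, 3.41 and 4.10), whereas Mpeg1 of the same list read 4.24, 12.0 and 6.25, highest in the DNase II-deficient array, and Adgre1 read 0.269, 0.282 and 0.271. The part of either list in the Cyp27b1 values was not tested. The other vitamin D genes were dim: the 25-hydroxylase Cyp2r1 read 0.226, 0.176 and 0.147, and the vitamin D inactivating Cyp24a1 read 0.213, 0.147 and 0.175. Cyp26a1, which clears retinoic acid, read 0.031, 0.184 and 0.065.

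The steroid hormone genes Cyp11a1 and Cyp21a1 were under the floor in every array, with values from 0.046 to 0.079. Cyp11b2, aldosterone synthase, read 0.167, 0.215 and 0.193. Cyp17a1 read 0.108, 0.360 and 0.101, so that it was above the floor in the DNase II-deficient array alone and at least 2.22-fold higher there than in wild-type. Of 5 listed adrenal and gonadal markers 4 were measured, and their sums were 6.88, 3.99 and 6.03. Most of each sum came from Nr5a1, at 3.53, 2.43 and 3.67, and Hsd3b1, at 3.09, 1.31 and 2.10. Inha was dim at 0.118, 0.215 and 0.147, and Star was under the floor in all arrays. The part of these markers in the Cyp17a1 values was not tested. Cyp20a1, an orphan enzyme, was the remaining gene above 0.96, at 1.41, 1.18 and 1.4802.

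**Figure D3:**
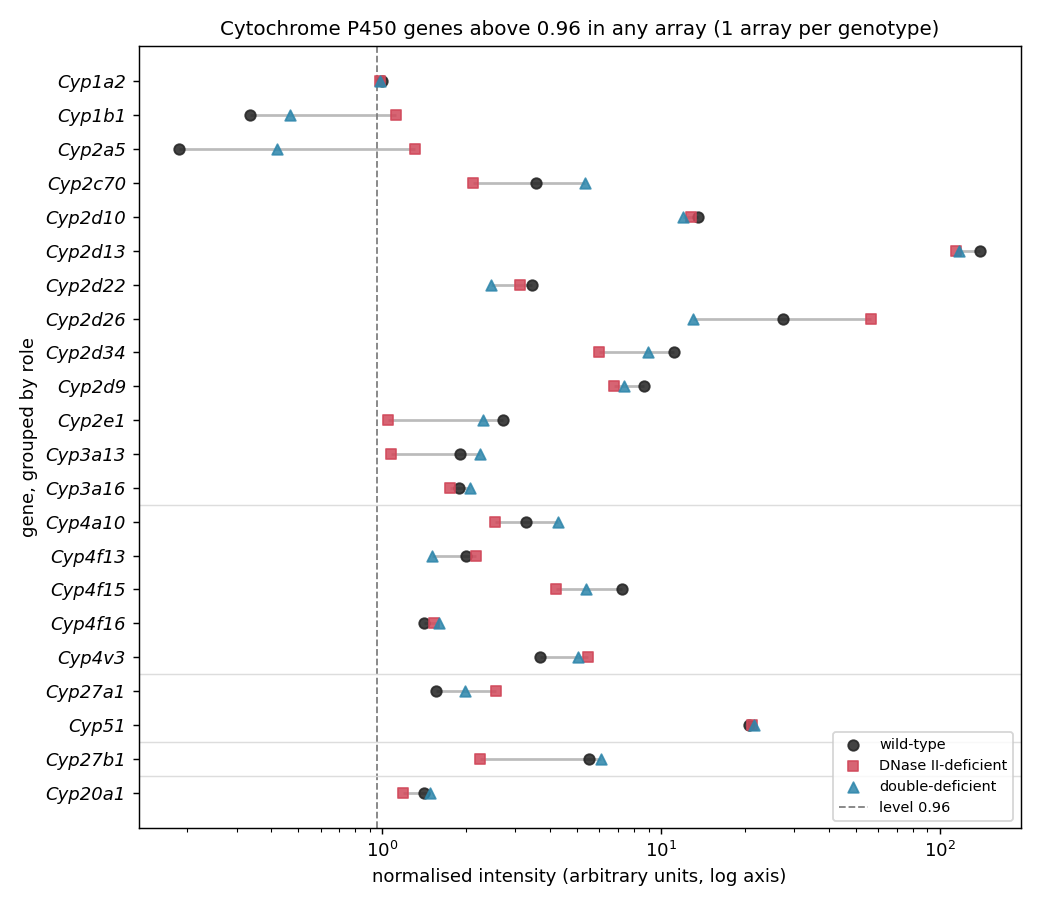
Normalised intensity (horizontal log axis) of the 22 P450 genes above 0.96 in any array, with 1 point per genotype and grey lines that join the lowest and highest value of a gene; faint lines separate role groups. Cyp2a5 and Cyp1b1 cross the dashed 0.96 line only in the DNase II-deficient array, Cyp2d26 spans 13.0 to 56.3, and Cyp51 stays between 20.6 and 21.6.

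The remaining dim genes belonged to families 1 to 4. Including the genes named above, the 38 dim genes had 40 probes with values from -0.009 to 0.863. Of these probes, 14 were above the floor in all 3 arrays, 13 in 1 or 2 arrays and 13 in none. The xenobiotic genes among them were Cyp2b9, Cyp2b10, Cyp2b13, Cyp2c29, Cyp2c37, Cyp2c39, Cyp2c50, Cyp2c55, Cyp2f2, Cyp2g1, Cyp2j5, Cyp2j6, Cyp2j9, Cyp2j13, Cyp3a11 and Cyp3a41a, besides Cyp1a1, Cyp2b19 and Cyp2c38. Cyp3a11, a main drug-oxidising enzyme of adult mouse liver, read 0.313, 0.043 and 0.201. Cyp2f2, the naphthalene-oxidising enzyme of lung, read 0.349, 0.118 and 0.113, so wild-type was at least 2.20-fold and 2.14-fold above the mutants, which were at the floor. Cyp2g1, an olfactory enzyme, read 0.308, 0.224 and 0.473, 2.11-fold apart between the mutants. The dim family 4 genes were Cyp4a12a, Cyp4a14, Cyp4a31, Cyp4b1, Cyp4f14, Cyp4f18 and Cyp4f39, with no value above 0.405. None of the dim genes entered the counts above.

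The partners of the P450 enzymes were read from lists of related genes. Of 12 genes of electron transfer and heme supply, 9 were measured and all 9 exceeded 0.96. In the DNase II-deficient array 1 of them (11.1%) read at least 2-fold above wild-type and 0 read 2-fold below, against 7.67% and 6.17% of all genes, and the median log2 difference was 0.08. The gene was Hmox2, a heme oxygenase, at 5.42, 11.9 and 7.85. Hmox1, the inducible heme oxygenase, read 43.6, 78.0 and 45.9, 1.79-fold higher in the DNase II-deficient array. Alas1, the rate-limiting enzyme of heme synthesis outside red cells, read 11.5, 21.003 and 20.8, about 1.8-fold higher in both mutants. Cyb5r3, the cytochrome b5 reductase, read 58.0, 30.1 and 65.2, so it was 1.93-fold lower in the DNase II-deficient array than in wild-type and 2.17-fold higher in the double-deficient array than there. Pgrmc2, a heme-binding membrane protein, read 5.14, 2.83 and 4.12. The gene of P450 reductase, Por, was not analysed here.

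Of 37 regulators of P450 genes 29 were measured and 21 compared for the loss of DNase II alone. Of these, 5 (23.8%) read at least 2-fold above wild-type and 0 read 2-fold below it, against 7.67% and 6.17% of all genes compared, and the median log2 difference was 0.09. Cebpb and Cebpd, transcription factors of the acute phase response, read 1.87, 8.92 and 3.71, and 2.30, 9.57 and 4.45, which is 4.78-fold and 4.16-fold higher without DNase II. Both were over 2-fold lower in the double-deficient than in the DNase II-deficient array. Ahr, the aryl hydrocarbon receptor, read 2.03, 4.08 and 2.62. Of the family 1 genes, the dim Cyp1a1 and Cyp1a2, just above 0.96, had the values given above, and Cyp1b1 read 0.334, 1.12 and 0.466. The part of Ahr in these values was not tested. Dbp, a circadian factor, read 0.463, 1.31 and 0.662, and Ppara, the fatty acid receptor, read 0.454, 0.966 and 0.489. Both were compared only because of their DNase II-deficient value, so 2 of the 5 had to be higher there. Nr1h3, the oxysterol receptor LXRα, named after its values were seen, read 3.96, 3.40 and 8.53. It was the only regulator at least 2-fold different between double-deficient and wild-type. That is 1 of 18 compared (5.56%) higher and 0 lower, against 2.05% and 0.735% of all genes. Cebpb and Cebpd fell just short there, at 1.99-fold and 1.94-fold higher than wild-type. Nr1i3, the receptor CAR of Cyp2b genes, was under the floor in all 3 arrays and is likewise named after its values were seen.

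Among 72 other drug-metabolising enzymes and transporters, 59 were measured and 34 compared for DNase II-deficient minus wild-type. At 2-fold, 2 (5.88%) were higher and 3 (8.82%) lower, close to the 7.67% and 6.17% of all genes, and the median log2 difference was -0.32. The bile salt export pump Abcb11 read 8.10, 1.24 and 2.68, 6.55-fold lower in the DNase II-deficient array than in wild-type, and the phospholipid transporter Abcb4 read 14.3, 6.91 and 8.96. The carboxylesterase Ces1d read 1.22, 0.048 and 0.268, at least 7.67-fold lower in the DNase II-deficient array. It entered both comparisons with wild-type only through its wild-type value. The conjugate exporter Abcc2 read 2.68, 5.93 and 2.71, and the alcohol dehydrogenase Adh1 read 3.82, 12.8 and 3.09, so both were high in the DNase II-deficient array alone. Of 33 compared in double-deficient minus wild-type, Abcb11, Ces1d and Fmo1 were at least 2-fold lower (9.09%) and 0 were higher. The shares of all genes were 0.735% lower and 2.05% higher. The median was -0.37 for the list and -0.08 for all genes compared. Fmo1, a flavin monooxygenase named after its values were seen, read 1.59, 1.27 and 0.745. It entered the comparison of double-deficient with wild-type only through its wild-type value.

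The cholesterol synthesis list, in which Cyp51 acts, had 18 of 22 genes measured and 16 compared, and none was 2-fold different in any of the 3 comparisons. Of all genes compared, 13.8% were 2-fold different between DNase II-deficient and wild-type, 7.96% between the mutants and 2.78% between double-deficient and wild-type. The median log2 difference of the list was -0.09 from wild-type to DNase II-deficient (-0.21 for all genes). It was 0.03 between the mutants (0.11 for all) and -0.04 from wild-type to double-deficient (-0.08 for all). Mvk, mevalonate kinase, had the largest of these log2 differences from wild-type to DNase II-deficient, at 4.07, 2.22 and 2.94, followed by Stard4, a sterol carrier, at 2.89, 3.997 and 4.10. The sterol enzymes Ebp, Tm7sf2 and Nsdhl had log2 differences from wild-type to DNase II-deficient of -0.43, -0.42 and -0.38.

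Of 35 partners in steroid, retinoid and bile acid metabolism 31 were measured and 19 compared for DNase II-deficient minus wild-type, 3 (15.8%) being at least 2-fold higher and 2 (10.5%) lower, against 7.67% and 6.17% of all genes, with a median log2 difference of -0.30. Hsd11b1, which regenerates active glucocorticoid, read 1.04, 4.63 and 1.54, and Lrat, which stores retinol as its ester in stellate cells, read 0.360, 1.65 and 0.477. Crabp1, a retinoic acid binding protein, read 0.595, 1.28 and 0.224. Lrat and Crabp1 were compared only because of their DNase II-deficient value, so that their being highest there was built into their entry, and Hsd11b1 exceeded the median in all 3 arrays. Rdh5, a retinol dehydrogenase, read 2.72, 1.04 and 1.13, low in both mutants, and Hsd3b1, a steroid dehydrogenase, read 3.09, 1.31 and 2.10. Akr1c6, a steroid reductase named after its values were seen, read 1.61, 0.807 and 2.46. It was the only member at least 2-fold higher in the double-deficient than in the DNase II-deficient array, a comparison it entered only through its double-deficient value. Of 19 compared there, 1 (5.26%) was higher and 3 (15.8%), Crabp1, Hsd11b1 and Lrat, were lower, against 3.11% and 4.85% of all genes.

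**Figure D4:**
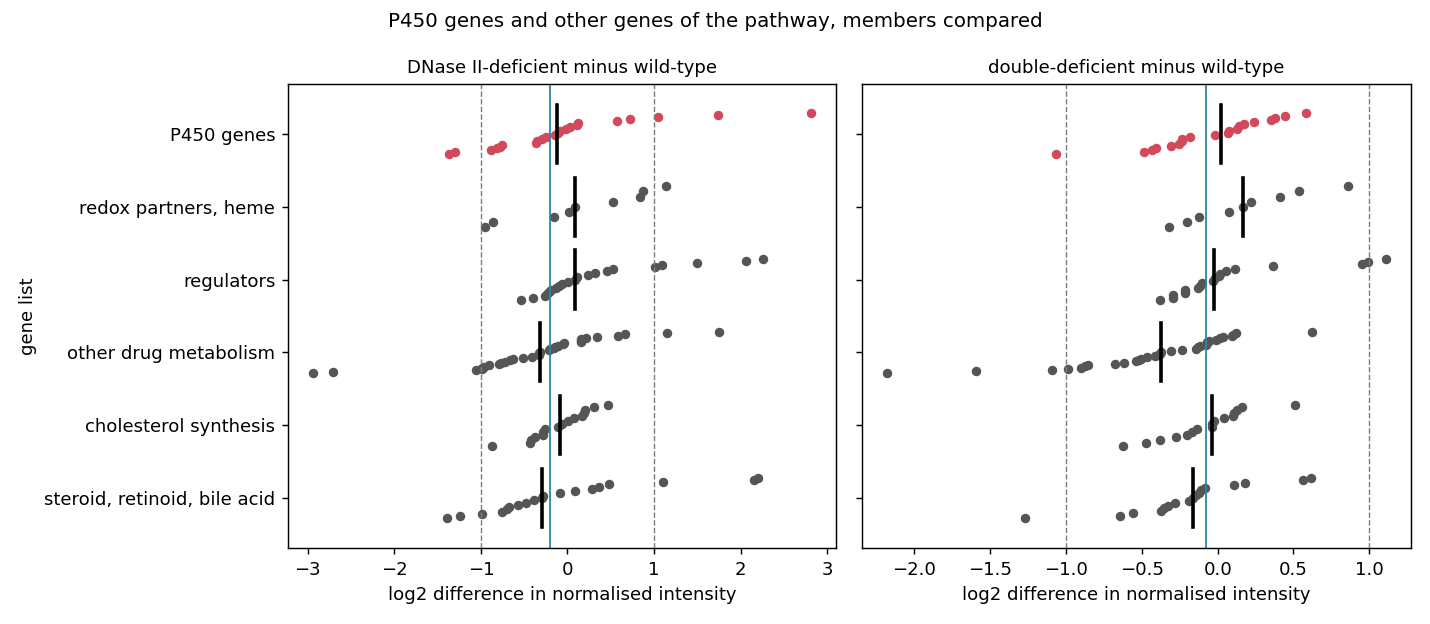
Log2 differences in normalised intensity (horizontal axes, which differ in range) of the P450 genes (red) and of 5 lists of related genes (grey, vertical axis), for DNase II-deficient minus wild-type (left) and double-deficient minus wild-type (right). Each point is a gene compared, black bars are list medians, the blue line is the median of all genes compared (-0.21 and -0.08) and dashed lines mark 2-fold; the P450 medians are -0.13 and 0.02.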

How the data were processed

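Per the labels' protocols, the authors hybridised biotin-labelled RNA from poly(A) RNA to CodeLink arrays, stained it with Cy5 streptavidin and analysed the images with the CodeLink System Software. The deposited values are normalised intensity on a linear scale. The sources used here name no background method, filter or flag. A common array level hides differences in total RNA, and some dim values lie below 0.

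Of 20289 probes, 20164 had 3 values, and 15035 of these had 1 gene symbol, for 13697 genes. All 60 P450 genes matched RefSeq by Entrez identifier. Dim intensities were raised to a floor, the 25th percentile of the array, before the log2 step. The brightest probe stood for a gene. Counts used a 2-fold threshold. With 1 array per genotype, no test was run and the number of arrays limits the precision. Members and lists were chosen with earlier results of these data known. Named were every P450 gene above 0.96 and, per related list, up to 5 genes with the largest difference from wild-type to DNase II-deficient, plus Por and Alas1, with the exceptions marked in the text. Alternatives changed scaling, floor, level filter, probe choice and threshold. The steps were tested on simulated data. Python 3.11.15, numpy 2.4.6 and pandas 2.3.3 were used.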

Additional observations from a re-analysis of the deposited data

How the results depend on the processing

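No called P450 gene changed sign under any alternative run. Of 396 values of single genes, 391 stayed within the spread of genes of like level. For Cyp1b1 and Cyp2a5 in double-deficient minus wild-type, where they were not compared and had no spread, a fixed limit stood in its place. Most of these checks could not fail. A floor at the 10th percentile changed none of the 22 genes, all above the main floor in every array. Averaging probes changed only Cyp4v3. Centring and equal 75th percentiles shifted all genes of a comparison alike, by too little to reverse a 2-fold call or exceed a spread. The floor at the array median changed only Cyp1b1 and Cyp2a5, so only quantile normalisation could move each gene on its own. The number of genes at least 2-fold different between DNase II-deficient and wild-type was 5 of 22 (22.7%, against 13.8% of all genes). It became 10 of 22 at 1.5-fold (45.5%, against 33.5%) and 3 of 22 with the floor at the array median (13.6%, against 11.1%). It became 8 of 47 without a level filter (17.02%, against 12.9%) and 2 of 9 with the filter at the 75th percentile (22.2%, against 13.7%). With the floor at the median the calls of Cyp1b1 and Cyp2a5 were lost, with differences of 0.22 and 0.45, because their wild-type values lie under that floor. Between the mutants the number was 7 of 22 (31.8%, against 7.96% of all genes). It became 3 of 10 with the filter at the 75th percentile (30%, against 7.71%) and 5 of 22 with the higher floor (22.7%, against 6.53%). With that floor Cyp1b1 (-0.21) and Cyp2a5 (-0.44) lost their calls because their double-deficient values lie under it. For double-deficient minus wild-type the single call, Cyp2d26, was lost with quantile normalisation and centring (0 genes each, against 2.81% and 2.95% of all genes). Without a filter 3 of 46 genes were called (6.52%, against 3.12%), Cyp2a5 higher and Cyp2d26 and Cyp2f2 lower. The median difference between DNase II-deficient and wild-type, -0.13, became 0.0060 with equal 75th percentiles, 0.080 after centring, -0.25 without a filter and -0.29 with the filter at the 75th percentile. Between the mutants the median of 0.05 became -0.066 after centring. For double-deficient minus wild-type, 0.02 became -0.090 without a filter and -0.21 with the filter at the 75th percentile. The filters changed which genes were counted. The other causes were not tested. At other levels 18 to 22 genes lay above the limit. Among all genes, higher calls were 55.4% as deposited and 73.6% after centring for DNase II-deficient minus wild-type. No paired analysis was possible because each genotype has 1 array.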
